A study of Mus musculus and Sus scrofa with 30 samples.

Results

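Porcine dedifferentiated fat (DFAT) cells treated with dicoumarol and magnolol together were compared with DFAT cells given the DMSO vehicle, on day 5 of induced fat cell formation. The comparison rests on 6 of the 30 libraries of the study, 3 with the combination and 3 with vehicle, chosen by their treatment labels and not by any measured value. DFAT cells are obtained from mature fat cells, here of pig subcutaneous fat, that have lost their lipid and returned to a fibroblast-like, dividing state. All DFAT groups received the same induction medium with dexamethasone at 0.5 µM, the phosphodiesterase inhibitor isobutyl methylxanthine (IBMX) at 12.5 µM, biotin at 20 µM, pantothenate at 10 µM and 2% serum. Insulin is not among its listed additives. Dicoumarol is a coumarin anticoagulant that blocks the recycling of vitamin K and also inhibits the quinone reductase NQO1, and magnolol is a lignan of magnolia bark. The sources used here do not give their doses. The other DFAT libraries (dicoumarol alone, magnolol alone and rosiglitazone, an agonist of the adipogenic receptor PPARG, 3 each) entered the model and are used below for context, as are the 6 libraries of the mouse line 3T3-L1 with the same 2 treatments.

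A fat cell forms when a fibroblast-like precursor switches on PPARG and the C/EBP factors, which in turn drive the genes for taking up fatty acids, joining them to glycerol and storing the product in a lipid droplet coated by perilipins. A rise in cyclic AMP, as from IBMX, and a glucocorticoid start this switch. Meanwhile the precursor usually gives up its fibroblast features, among them the actin-based contractile apparatus and the fibrillar collagens. The study asked, per its title, whether these natural compounds enhance adipogenesis for food production.

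Values are the authors' normalized counts, that is, gene counts divided by a size factor for each library, and all levels below are on that scale. Fold changes are differences of log2(normalized count + 1), which understates the change of low genes, with limma's moderated standard error (SE) and a Benjamini-Hochberg adjusted p over 14819 genes. A gene was called, and is said to have risen or fallen, where the adjusted p was under 0.05. Estimated depth was 54.4 to 70.1 M reads in the 6 libraries, and fold changes had a median SE of 0.0992. Mitochondrial genes took 9.58% to 10.2% of the counts in the vehicle libraries and 12.2% to 15.1% in the combination libraries, and the 10 most abundant genes took 17.0% to 17.8% and 21.5% to 24.9%. The highest of both shares was in combination replicate 3. The labels do not say whether the libraries of a group came from separate cultures or animals, so the p-values measure only the spread between these libraries, which may be technical.

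The cells carried stromal features in both groups. Of 9 markers of stromal preadipocytes 8 were listed, with a summed level, to which COL1A1 gave most, of 1115670 to 1237750 with vehicle and 1848370 to 2139440 with the combination. Without COL1A1 the sum lay the other way, at 145535 to 158300 with vehicle and 118484 to 123821 with the combination. The summed level of 8 adipocyte markers was 2848 to 3051 with vehicle and 15129 to 16353 with the combination. Of 5 endothelial markers, KDR and VWF were at 0 in all 6 libraries, and the sum was 204 to 239 with vehicle and 162 to 210.2 with the combination. The 6 macrophage and leukocyte markers summed to 81.5 to 89.6 and 77.7 to 91.6, and the 5 bone and cartilage markers to 3210 to 3746 and 3193 to 3657. The 5 muscle markers summed to 689 to 735 with vehicle and 1982 to 2715 with the combination, to which MYH11 gave most. MYOD1 and MYOG stayed at 3.1 or less in all 6 libraries. In bulk RNA a larger number of cells of a type and more RNA per cell cannot be told apart.

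The combination changed 1508 genes (10.2% of those tested). Of these 906 rose (6.11%) and 602 fell (4.06%). The number of falls was 366 without combination replicate 3, 353 without vehicle replicate 1 and 355 without vehicle replicate 3, and rises numbered 646 to 752 with any 1 library left out. The rises were the larger changes: the median absolute log2 fold change was 0.52 among them and 0.32 among the falls, and at least 2-fold changes numbered 160 (1.08%) upward and 41 (0.277%) downward. The 3 combination libraries lay entirely above or below the 3 vehicle libraries in 4282 genes (28.9%), 1499 of the called genes among them. Most called genes, 1436, were protein-coding, 64 were long noncoding RNAs, and 179 had no gene symbol.

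The 4 largest rises with a symbol were ADIPOQ, PCK1, PLIN4 and PLIN1, all genes of fat cells. ADIPOQ encodes adiponectin, the hormone of mature fat cells (ENSSSCG00000039103, chromosome 13, 124633685 to 124646646, plus strand). The vehicle libraries had 23.7, 42 and 19.3 normalized counts of ADIPOQ and the combination libraries 2091, 1997 and 2463. With no overlap between the groups, ADIPOQ rose by 6.29 on the log2 scale (SE 0.22, adjusted p = 2.39e-12). PLIN1, the perilipin that coats the large lipid droplet and gates its breakdown (ENSSSCG00000001844, chromosome 7, 55236348 to 55250797, minus strand), had a narrow spread. Normalized counts of PLIN1 were 130.2, 155 and 135 with vehicle and 3969, 3829 and 3909.9 with the combination. PLIN1 rose by 4.79 on the log2 scale (SE 0.105, adjusted p = 2.7e-15), and the groups did not overlap. The vehicle libraries thus held a low but measurable level of both genes, and the groups lay far apart. PLIN4, a perilipin of forming droplets, rose from 204 ± 23.5 (SD, n = 3) to 6388 ± 202 normalized counts (log2 fold change 4.97, SE 0.104, adjusted p = 2.52e-15). CIDEC, which fuses small droplets into large ones, rose from 326 ± 52.1 (SD, n = 3) to 1399 ± 260.3 normalized counts (log2 fold change 2.10, SE 0.141, adjusted p = 2.02e-08).

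The list of lipid droplet coat and growth genes had 11 tested members, of which 8 rose and none fell, with a median log2 fold change of 1.04 beside -0.01 over all genes tested. All 8 kept the call in each of the 13 alternative fits. CIDEA, a droplet protein of thermogenic and lipid-filled fat cells, rose from 15.2 ± 5.23 (SD, n = 3) to 56 ± 4.9 normalized counts (log2 fold change 1.87, SE 0.265, adjusted p = 1.23e-04). PLIN2, the perilipin that most cell types carry, rose from 4034 ± 148 (SD, n = 3) to 8271 ± 428 normalized counts (log2 fold change 1.04, SE 0.0672, adjusted p = 1.3e-08). PLIN5, the perilipin of oxidative tissues, rose from 1.64 ± 1.54 (SD, n = 3) to 16.1 ± 3.09 normalized counts (log2 fold change 2.90, SE 0.528, adjusted p = 0.00135), with 0 to 3.06 normalized counts in the vehicle libraries. PLIN5 averaged under 10 with vehicle and with dicoumarol, and entered the test only through groups where it was high, the combination among them. Its call therefore adds no independent support to the count of this list. BSCL2, the seipin of droplet formation, was not called (log2 fold change 0.13, adjusted p = 0.436).

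Among 13 tested genes of fatty acid uptake and binding, 8 rose and none fell (median 0.67). LPL, the lipase that frees fatty acids from circulating lipoproteins, was abundant before treatment. It had 15527, 14288 and 17096 normalized counts in the 3 vehicle libraries and 34187, 31990.3 and 34945 in the 3 combination libraries. All 3 combination libraries lay above all vehicle libraries, and LPL rose by 1.11 on the log2 scale (SE 0.0817, adjusted p = 5.66e-08). The fatty acid transporter CD36 rose from 1824 ± 66.7 (SD, n = 3) to 13949 ± 1883 normalized counts (log2 fold change 2.93, SE 0.0998, adjusted p = 1.82e-12). The binding protein of fat cells, FABP4, rose from 651 ± 141 (SD, n = 3) to 3736 ± 131 normalized counts (log2 fold change 2.54, SE 0.116, adjusted p = 8.76e-11), and its heart and muscle relative FABP3 changed more. The vehicle libraries had 1138, 941 and 1052 normalized counts of FABP3 and the combination libraries 9956, 8401 and 10312. The groups did not overlap, and FABP3 rose by 3.19 on the log2 scale (SE 0.123, adjusted p = 8.24e-12). Both binding proteins separated the groups completely. ACSL4, an acyl-CoA synthetase, was not called (log2 fold change -0.17, adjusted p = 0.0941).

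The steps from fatty acid to triglyceride moved at few points. Of 14 tested genes of triglyceride synthesis only GPAT4 and DGAT2 were called in this fit, both higher, and the median of the list was 0.04. DGAT2, which adds the last fatty acid, rose from 405 ± 112 (SD, n = 3) to 2774 ± 276 normalized counts (log2 fold change 2.80, SE 0.144, adjusted p = 4.6e-10). LPIN2, a lipin that supplies diacylglycerol, was not called (log2 fold change -0.03, adjusted p = 0.77). Fatty acid synthesis likewise moved in part, with 4 of 16 tested genes higher and 1 lower. THRSP, a nuclear regulator of lipogenesis, rose from 210.4 ± 22.8 (SD, n = 3) to 2245 ± 268 normalized counts (log2 fold change 3.41, SE 0.105, adjusted p = 4.33e-13). The other rises were MLXIPL, the glucose-sensing factor ChREBP (1.42, SE 0.202), the elongase ELOVL6 (1.04, SE 0.0691) and the desaturase SCD (0.85, SE 0.087). FASN, the fatty acid synthase, had a log2 fold change of -0.43 (adjusted p = 0.189) and was not called. FADS1, a desaturase of polyunsaturated fatty acids, fell by 0.40 but lost the call without combination replicate 3 and without vehicle replicate 1.

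Lipolysis and the supply of glycerol moved in part. Of 9 tested lipolysis genes 5 rose and none fell, all 5 in every alternative fit. LIPE, the hormone-sensitive lipase, rose from 381 ± 59.5 (SD, n = 3) to 2327 ± 208 normalized counts (log2 fold change 2.62, SE 0.123, adjusted p = 1.31e-10). PDE3B, the phosphodiesterase by which insulin restrains lipolysis, rose from 72.3 ± 9.55 (SD, n = 3) to 149 ± 13.5 normalized counts (log2 fold change 1.04, SE 0.148, adjusted p = 1.33e-04). ADORA1, the adenosine receptor that restrains it, rose from 144 ± 31.6 (SD, n = 3) to 264 ± 19.9 normalized counts (log2 fold change 0.89, SE 0.14, adjusted p = 3.48e-04). PNPLA2, the lipase of the first step, was not called (log2 fold change 0.23, adjusted p = 0.242). In the list of glyceroneogenesis and pyruvate use 6 of 13 rose and none fell. PCK1, a cytosolic enzyme on the path from pyruvate to glycerol phosphate in fat, had low counts with vehicle. Normalized counts of PCK1 were 12.7, 24.3 and 4.07 with vehicle and 562, 432 and 377 with the combination. With no overlap between the groups, PCK1 rose by 5.23 on the log2 scale (SE 0.486, adjusted p = 1.22e-06). AQP3, a channel for water and glycerol, rose from 185 ± 31.7 (SD, n = 3) to 2133 ± 225 normalized counts (log2 fold change 3.53, SE 0.128, adjusted p = 3.72e-12). PDK4, which holds pyruvate back from oxidation, had a log2 fold change of 1.50, but the call was lost without combination replicate 2 (adjusted p = 0.0587) and without vehicle replicate 1 (0.0527). GK, glycerol kinase, had a log2 fold change of 0.39 and was not called without combination replicate 1 or vehicle replicate 3. MPC2, a subunit of the mitochondrial pyruvate carrier, had one of 0.18 and was called with vehicle replicate 3 left out but with none of the other 5 libraries left out.

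**Figure D1:**
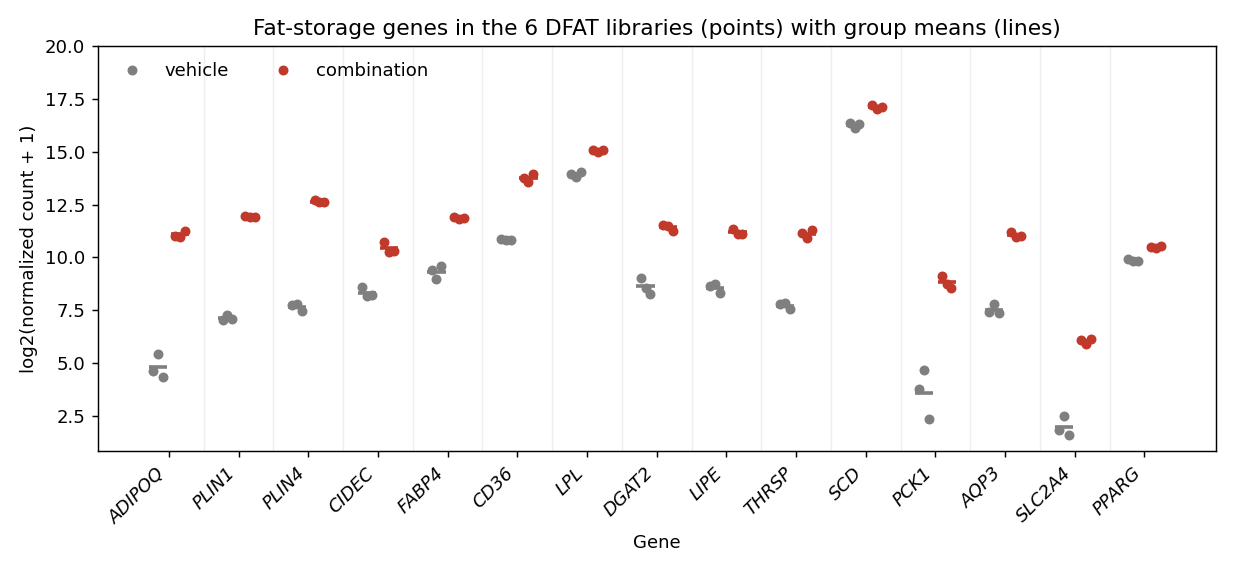
Each point is 1 DFAT library and each line a group mean, on the log2(normalized count + 1) axis, for 15 fat-storage genes under vehicle (grey) and the combination (red). The combination points lie above all vehicle points in every gene drawn, with the widest gaps in ADIPOQ, PCK1, PLIN4 and PLIN1 and the narrowest in PPARG.

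The transcription factors of fat cell formation moved in both directions. Of 20 tested, 5 rose and 5 fell. These counts were 3 and 1 without combination replicate 1, 2 and 3 without combination replicate 2, 5 and 2 without combination replicate 3 or vehicle replicate 2, 4 and 2 without vehicle replicate 1, and 3 and 5 without vehicle replicate 3. PPARG (ENSSSCG00000011579, chromosome 13, 68302322 to 68433944, plus strand) rose from 927 ± 36.9 (SD, n = 3) to 1444 ± 36.4 normalized counts (log2 fold change 0.64, SE 0.0687, adjusted p = 6.04e-06). CEBPA, its partner in mature fat cells, had a log2 fold change of 0.61 (SE 0.141, adjusted p = 0.00901), but not without combination replicate 2 (adjusted p = 0.0507) or vehicle replicate 3 (0.0526). CEBPD, an early factor induced by glucocorticoids and cyclic AMP, fell from 15938 ± 1043 (SD, n = 3) to 11689 ± 631 normalized counts (log2 fold change -0.45, SE 0.0623, adjusted p = 1.05e-04). PPARGC1A, the coactivator of mitochondrial and thermogenic genes, rose from 3.33 ± 3.03 (SD, n = 3) to 20.4 ± 2.37 normalized counts (log2 fold change 2.70, SE 0.542, adjusted p = 0.00313). KLF9, a glucocorticoid-induced factor, was not called (log2 fold change -0.15, adjusted p = 0.146).

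Secreted fat proteins and the insulin-responsive glucose machinery rose in part. Of 13 tested adipokine genes 7 rose and none fell (median 0.54). LEP, which encodes leptin, rose from 9.55 ± 1.84 (SD, n = 3) to 31.8 ± 4.12 normalized counts (log2 fold change 1.64, SE 0.385, adjusted p = 0.00979). RBP4, the retinol carrier, rose from 12.5 ± 3.76 (SD, n = 3) to 44.9 ± 8.61 normalized counts (log2 fold change 1.79, SE 0.305, adjusted p = 7.52e-04). Of 16 tested genes of insulin signalling and glucose uptake 5 rose and 2 fell. The 5 rises were called in every alternative fit, and the falls were 1 without combination replicate 1 or 2 and 0 without combination replicate 3 or vehicle replicate 1 or 2. SLC2A4, the insulin-regulated glucose transporter, rose from 3.08 ± 1.4 (SD, n = 3) to 65.3 ± 5.17 normalized counts (log2 fold change 4.07, SE 0.332, adjusted p = 2.16e-07). TRARG1, which travels with that transporter, rose from 427 ± 56.8 (SD, n = 3) to 1857 ± 104 normalized counts (log2 fold change 2.13, SE 0.108, adjusted p = 4.23e-10).

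Nuclear genes of mitochondrial metabolism mostly did not pass the test. In the citric acid cycle 2 of 20 rose and 1 fell (median -0.01), in fatty acid oxidation and ketone use 2 of 20 rose and 1 fell (0.07), in branched-chain amino acid breakdown 1 of 25 rose and 1 fell (-0.04), and among 42 respiratory chain subunits none rose and 2 fell (-0.04). In each of these lists the share of falls is near the 4.06% of all tested genes that fell. Over all tested genes 6.11% rose. The citric acid cycle fall, that of IDH3A (-0.23), was lost without combination replicate 1, vehicle replicate 1 or vehicle replicate 3. The branched-chain rise was lost without combination replicate 1 or 3 or vehicle replicate 1 or 2. Fatty acid oxidation lost its fall without combination replicate 1 or vehicle replicate 2 and the rise of CPT1A, which passes fatty acids into mitochondria, without combination replicate 3 or vehicle replicate 1. The rises in the citric acid cycle list were IDH2 (log2 fold change 0.45, SE 0.0898) and IDH1 (0.25, SE 0.0524), isocitrate dehydrogenases that make NADPH. IDH1 works outside mitochondria and is not a step of the cycle itself. OXCT1, the enzyme that lets a cell burn ketone bodies, rose from 1739.7 ± 82.1 (SD, n = 3) to 2287 ± 69.8 normalized counts (log2 fold change 0.39, SE 0.0674, adjusted p = 7.50e-04). Of the 2 respiratory chain falls neither was called in every alternative fit, and both were lost without combination replicate 2, without combination replicate 3 and without vehicle replicate 3. Of the 13 protein genes of the mitochondrial genome ND5 and ND6 were called higher (0.80 and 0.85), none without combination replicate 3, without vehicle replicate 1 or under quantile normalization. ND5 had 488176, 596967 and 568834 normalized counts with vehicle and 856039, 770965 and 1332070 with the combination, the highest in combination replicate 3. Among 30 peroxisomal genes 2 rose and 1 fell (median 0.01), near the shares over all tested genes. PEX11A, which divides peroxisomes, rose by 0.84 and ACAA1, a thiolase of peroxisomal oxidation, by 0.69. CAT, catalase, fell by 0.26 but was not called without combination replicate 3 or without vehicle replicate 1.

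Part of the contractile genes, which smooth muscle cells and myofibroblasts share, rose as well. Of 26 tested contractile genes and targets of the YAP and SRF transcription factors, 14 rose and none fell, with a median of 0.45, and 10 rises were called in every alternative fit. Quantile normalization, which forces all libraries to 1 distribution, gave 12 higher and 1 lower (median 0.32). MYH11, the myosin heavy chain of smooth muscle (ENSSSCG00000000146, chromosome 3, 7002735 to 7143095, plus strand), led the list. It had 561, 594 and 575 normalized counts in the 3 vehicle libraries and 1743, 1909 and 2411 in the 3 combination libraries. MYH11 rose by 1.79 on the log2 scale (SE 0.139, adjusted p = 1.16e-07), and the groups did not overlap. CNN1, calponin of smooth muscle, rose from 777 ± 119 (SD, n = 3) to 2267 ± 279 normalized counts (log2 fold change 1.55, SE 0.176, adjusted p = 1.15e-05). ACTA2, the smooth muscle actin of myofibroblasts, rose from 60502 ± 8848 (SD, n = 3) to 109391 ± 7365 normalized counts (log2 fold change 0.86, SE 0.136, adjusted p = 3.47e-04). ACTG2, the enteric smooth muscle actin, rose from 9304 ± 928 (SD, n = 3) to 21957 ± 1882 normalized counts (log2 fold change 1.24, SE 0.157, adjusted p = 3.81e-05). The actin genes are near-identical in sequence, and the sources used here do not say how shared reads were assigned to each. CCN2, a connective tissue growth factor driven by YAP, was not called (log2 fold change 0.46, adjusted p = 0.0749).

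Of 8 tested smooth and skeletal muscle markers 6 rose and none fell (median 1.17; under quantile normalization 5 and 1). The other 7 of the 15 listed, MYOD1, MYOG, MYF5, PAX7, CKM, TNNT3 and MYH3, lay under the minimum level for testing. ACTA1, among the 6 rises, was not called under quantile normalization or without combination replicate 2 or 3 or vehicle replicate 3. CSPG4, the NG2 proteoglycan of pericytes, rose from 3427 ± 244 (SD, n = 3) to 11166 ± 418 normalized counts (log2 fold change 1.71, SE 0.0726, adjusted p = 3.92e-11). SMTN, smoothelin of the contractile cytoskeleton, rose from 3108 ± 235 (SD, n = 3) to 6663 ± 228 normalized counts (log2 fold change 1.10, SE 0.0782, adjusted p = 3.95e-08). DES, desmin, rose from 42.8 ± 22 (SD, n = 3) to 139 ± 16.3 normalized counts (log2 fold change 1.81, SE 0.38, adjusted p = 0.00463). RGS5, a pericyte regulator of G protein signalling, had a log2 fold change of -0.89 (adjusted p = 0.0757) and was not called. Outside this list, ITGA7, a laminin receptor of muscle cells, was among the 15 largest rises. The vehicle libraries had 640.005, 669 and 631 normalized counts of ITGA7 and the combination libraries 5622, 5603 and 5559.7. All 3 combination libraries lay above all vehicle libraries, and ITGA7 rose by 3.11 on the log2 scale (SE 0.0898, adjusted p = 1.88e-13). ITGA7 averaged 4245 ± 770 (SD, n = 3) with rosiglitazone. Unlike the contractile genes, it also rose in 3T3-L1 (log2 fold change 1.73, adjusted p = 0.00104). The part that a change in cell types had in these values was not tested.

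Part of the collagen chains rose, and the count depended on the scaling. Of 23 tested collagen chains 11 rose and 1 fell (median 0.55). Under quantile normalization 7 rose and 1 fell, with a median of 0.17. The fall was COL14A1 (-0.39), which was not called without combination replicate 1, combination replicate 2, vehicle replicate 2 or vehicle replicate 3. COL11A1, a minor fibrillar chain that nucleates fibrils (ENSSSCG00000006857, chromosome 4, 115634172 to 115840708, plus strand), rose from 7545 ± 729 (SD, n = 3) to 28188 ± 5967 normalized counts (log2 fold change 1.89, SE 0.119, adjusted p = 9.35e-09), highest in combination replicate 3. COL15A1, a basement membrane collagen, rose from 47546 ± 1077 (SD, n = 3) to 102775 ± 11273 normalized counts (log2 fold change 1.11, SE 0.0845, adjusted p = 9.23e-08). COL12A1, which sits on the surface of fibrils, rose from 30318 ± 1966 (SD, n = 3) to 56906 ± 9131 normalized counts (log2 fold change 0.90, SE 0.112, adjusted p = 3.12e-05). COL1A1, the main chain of type I collagen, was lifted in all 3 combination libraries. Normalized counts of COL1A1 were 1062900, 1084530 and 970133 with vehicle and 1860210, 1729010 and 2020960 with the combination. The groups did not overlap, and COL1A1 rose by 0.85 on the log2 scale (SE 0.134, adjusted p = 3.78e-04). Under quantile normalization its log2 fold change was 0.19 (adjusted p = 0.447), and COL1A1 was not called. The type IV chain COL4A1 was not called (log2 fold change 0.14, adjusted p = 0.459).

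Proteins that assemble, crosslink and cut the matrix rose in part. Of 23 genes of elastic fibres and crosslinking 8 rose and none fell, 5 without combination replicate 3. ELN, elastin itself, rose from 59.6 ± 20.6 (SD, n = 3) to 331 ± 53.8 normalized counts (log2 fold change 2.49, SE 0.218, adjusted p = 5.69e-07). LOXL4, a lysyl oxidase that crosslinks collagen and elastin, rose from 309 ± 25.6 (SD, n = 3) to 737 ± 9.95 normalized counts (log2 fold change 1.26, SE 0.093, adjusted p = 6.15e-08). Of 22 metalloproteinases and inhibitors 11 rose and 1 fell, the collagenase MMP1 (-1.51), which was not called without combination replicate 2 or 3 or vehicle replicate 2 or 3. ADAMTS14, a procollagen processing enzyme, rose from 49.3 ± 2.34 (SD, n = 3) to 121 ± 15.9 normalized counts (log2 fold change 1.27, SE 0.179, adjusted p = 1.12e-04). MMP2, the gelatinase, was not called (log2 fold change -0.16, adjusted p = 0.309). Of 28 matricellular and adhesive glycoproteins 7 rose and 1 fell. The fall was TGFBI, an adhesive protein induced by TGF-beta. It had 1387, 1309 and 1267 normalized counts in the 3 vehicle libraries and 719.9, 679.8 and 654 in the 3 combination libraries. With no overlap between the groups, TGFBI fell by 0.95 on the log2 scale (SE 0.0754, adjusted p = 1.56e-07). THBS1, a thrombospondin, had a log2 fold change of 0.70 and of 0.01 under quantile normalization, where it was not called, nor was it without combination replicate 3 or without vehicle replicate 2.

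The small leucine-rich proteoglycans, which bind collagen fibrils, split. Of 13 tested, PRELP, ASPN and FMOD rose and DCN and LUM fell, all 5 in every alternative fit. DCN, decorin (ENSSSCG00000000915, chromosome 5, 91682658 to 91714235, plus strand), had a low spread in both groups. The vehicle libraries had 9261, 9641 and 9612 normalized counts of DCN and the combination libraries 4431, 4285 and 4609. DCN fell by 1.10 on the log2 scale (SE 0.0645, adjusted p = 3.5e-09), and the groups did not overlap. LUM, lumican, fell from 56926 ± 3191 (SD, n = 3) to 34482 ± 1851 normalized counts (log2 fold change -0.72, SE 0.0694, adjusted p = 1.62e-06). PRELP, a matrix anchor at basement membranes, rose from 1816 ± 135 (SD, n = 3) to 3973 ± 448 normalized counts (log2 fold change 1.13, SE 0.124, adjusted p = 8.33e-06). BGN, biglycan, was not called (log2 fold change 0.08, adjusted p = 0.583). Of the 20 tested markers of preadipocytes and stromal progenitors 5 rose and 2 fell, and 3 rises and 1 fall were called in every alternative fit. PDGFRA, the growth factor receptor of fat progenitors, fell from 60676 ± 4503 (SD, n = 3) to 33300.5 ± 1981 normalized counts (log2 fold change -0.86, SE 0.0943, adjusted p = 7.24e-06). NT5E, the surface enzyme CD73, rose from 872 ± 88.1 (SD, n = 3) to 1892 ± 269.7 normalized counts (log2 fold change 1.11, SE 0.107, adjusted p = 1.62e-06). PDGFRB, the receptor of mural and stromal cells, was not called (log2 fold change 0.24, adjusted p = 0.103).

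**Figure D2:**
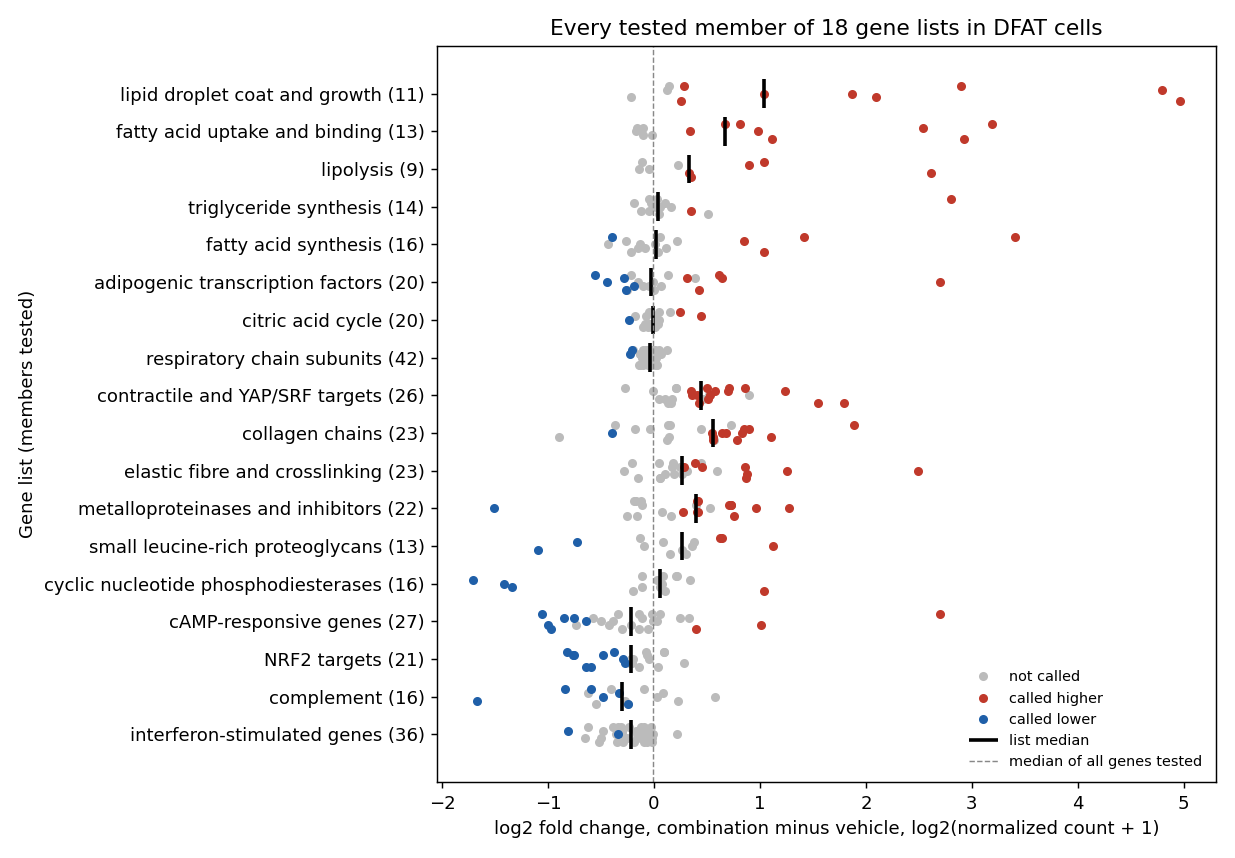
Each point is 1 tested gene of 18 lists, placed by its log2 fold change of the combination against vehicle, with called rises in red, called falls in blue, other genes in grey and the list median as a black bar. The lipid droplet list has the highest median drawn, 1.04, and the complement list the lowest, -0.30.

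Signalling genes around adipogenesis moved in part, beside 6.11% of all tested genes that rose and 4.06% that fell. Of 39 tested genes of TGF-beta and BMP signalling 8 rose and 3 fell, and without combination replicate 2 or under quantile normalization 5 rose and 3 fell. TGFB3, a TGF-beta ligand, rose from 519 ± 22.9 (SD, n = 3) to 1191 ± 47.9 normalized counts (log2 fold change 1.20, SE 0.0863, adjusted p = 4.76e-08). INHBA, the activin A subunit, rose from 231 ± 41.2 (SD, n = 3) to 465 ± 80.1 normalized counts (log2 fold change 1.01, SE 0.156, adjusted p = 3.01e-04). ID2, a BMP-induced inhibitor of differentiation factors, fell from 1457 ± 88.4 (SD, n = 3) to 895 ± 106 normalized counts (log2 fold change -0.71, SE 0.0983, adjusted p = 9.94e-05). Of 39 Wnt pathway genes and brakes on adipogenesis 9 rose and 2 fell, with 1 fall called without combination replicate 1 or 2 or vehicle replicate 2 or 3. The share of falls is near that over all tested genes. WNT10B, a ligand that holds precursors undifferentiated, rose from 22.3 ± 5.28 (SD, n = 3) to 70.5 ± 0.99 normalized counts (log2 fold change 1.64, SE 0.262, adjusted p = 3.93e-04). The Wnt inhibitors DKK2 and SFRP4 had log2 fold changes of 0.97 (SE 0.141) and 0.77 (SE 0.144). Among 14 genes of insulin-like growth factors and their partners, GHR, the growth hormone receptor, rose from 377 ± 29.1 (SD, n = 3) to 954 ± 90.2 normalized counts (log2 fold change 1.33, SE 0.0948, adjusted p = 3.95e-08). IGFBP5, a binding protein, rose from 39196 ± 1723 (SD, n = 3) to 73116 ± 9027 normalized counts (log2 fold change 0.89, SE 0.0808, adjusted p = 8.62e-07). IGF1 itself fell. Normalized counts of IGF1 were 4116, 4123 and 4438 with vehicle and 2317, 2556 and 2639.7 with the combination. All 3 combination libraries lay below all vehicle libraries, and IGF1 fell by 0.76 on the log2 scale (SE 0.078, adjusted p = 3.79e-06). Growth hormone acting on GHR induces IGF1 in many tissues, and here the 2 transcripts moved in opposite directions.

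Phosphodiesterases that degrade cyclic AMP were among the largest falls. Of 16 tested cyclic nucleotide phosphodiesterases 3 fell and 1, PDE3B, rose. PDE4B (ENSSSCG00000003805, chromosome 6, 146166688 to 146719682, minus strand), a cyclic AMP phosphodiesterase of many cell types, varied most among libraries. It had 1676, 1721 and 1255 normalized counts in the 3 vehicle libraries and 492, 578 and 362 in the 3 combination libraries. The groups did not overlap, and PDE4B fell by 1.71 on the log2 scale (SE 0.233, adjusted p = 8.4e-05). PDE4D, of the same family (ENSSSCG00000016929, chromosome 16, 37897302 to 39306364, minus strand), was tighter. The vehicle libraries had 1299, 1171 and 1308 normalized counts of PDE4D and the combination libraries 465, 549.7 and 478. With no overlap between the groups, PDE4D fell by 1.34 on the log2 scale (SE 0.0806, adjusted p = 4.58e-09). PDE7B, another phosphodiesterase specific for cyclic AMP, fell from 1416 ± 128 (SD, n = 3) to 531 ± 29.1 normalized counts (log2 fold change -1.41, SE 0.0957, adjusted p = 2.16e-08). PDE5A, specific for cyclic GMP, was not called (log2 fold change 0.10, adjusted p = 0.46).

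Of 27 tested genes that cyclic AMP induces 3 rose and 6 fell, and the falls were 3 without vehicle replicate 1 and 2 without vehicle replicate 3. The 2 falls called in every alternative fit were SIK1 and NR4A1. SIK1, a kinase that restrains CREB coactivators, had 3460.4, 3712 and 3033 normalized counts with vehicle and 1791, 1919.7 and 1421 with the combination, a level 0.501 times that with vehicle in the limma fit (adjusted p = 8.53e-06). NR4A1, an early nuclear receptor, fell from 396 ± 65.5 (SD, n = 3) to 217 ± 24.1 normalized counts (log2 fold change -0.85, SE 0.134, adjusted p = 3.47e-04). EGR1 was not called (log2 fold change -0.57, adjusted p = 0.43). The rises were PPARGC1A, INHBA and SIK2. DIO2, the deiodinase that makes active thyroid hormone in brown fat, fell from 422 ± 24.7 (SD, n = 3) to 192 ± 27.1 normalized counts (log2 fold change -1.14, SE 0.152, adjusted p = 6.64e-05). Of 22 glucocorticoid targets 4 rose and 6 fell, with 3 and 3 without combination replicate 1 and 2 and 5 without combination replicate 2. The falls called in every alternative fit were ERRFI1 (-0.89, SE 0.104), SGK1 (-0.82, SE 0.0988) and CEBPD. FKBP5, a standard target of that receptor, was not called (log2 fold change -0.05, adjusted p = 0.724).

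Many targets of NRF2, the transcription factor of the oxidative stress response, fell. Of 21 tested none rose and 9 fell, with a median of -0.21, and 7 falls were called in every alternative fit. NQO1, the quinone reductase that dicoumarol inhibits (ENSSSCG00000002754, chromosome 6, 17292770 to 17302590, plus strand), was tight in both groups. Normalized counts of NQO1 were 2229, 2305 and 2328 with vehicle and 1265, 1352 and 1261 with the combination. NQO1 fell by 0.82 on the log2 scale (SE 0.0789, adjusted p = 1.62e-06), and the groups did not overlap. SRXN1, which repairs peroxiredoxins, fell from 8510.3 ± 596 (SD, n = 3) to 5056 ± 395 normalized counts (log2 fold change -0.75, SE 0.0761, adjusted p = 3.09e-06). TXNRD1, thioredoxin reductase, fell from 8068 ± 747 (SD, n = 3) to 5322 ± 331 normalized counts (log2 fold change -0.60, SE 0.0734, adjusted p = 2.76e-05). GCLC, the rate-limiting subunit of glutathione synthesis, fell from 3379 ± 29.6 (SD, n = 3) to 2418 ± 126 normalized counts (log2 fold change -0.48, SE 0.0628, adjusted p = 4.83e-05). ABCC1, an exporter of glutathione conjugates, was not called (log2 fold change 0.10, adjusted p = 0.345). Among 21 antioxidant enzymes 3 rose and 5 fell, and without combination replicate 3 or without vehicle replicate 1 the falls were 3. The rises were the microsomal glutathione transferases MGST1, MGST2 and MGST3. MGST1 rose from 971 ± 65.2 (SD, n = 3) to 2242 ± 139 normalized counts (log2 fold change 1.21, SE 0.102, adjusted p = 3.65e-07). PRDX6 (-0.57, SE 0.0957), GPX1 (-0.54, SE 0.094) and SOD2 (-0.50, SE 0.0869) fell in every alternative fit. In the list of the vitamin K cycle and its dependent proteins, 12 tested, NQO1 fell and GGCX, the carboxylase of the cycle (0.21), and PROS1, protein S (0.29), rose. GGCX was not called without combination replicate 1, without combination replicate 3 or without vehicle replicate 3. NUPR1, a stress-induced nuclear protein of the integrated stress response list (3 of 29 higher, 2 lower), fell from 7157 ± 577 (SD, n = 3) to 3416 ± 464 normalized counts (log2 fold change -1.07, SE 0.114, adjusted p = 5.54e-06).

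Falls were also found among complement and chemokine genes, most members of which were not called. Of 16 tested complement genes none rose and 6 fell, with a median of -0.30, and 4 falls were called in every alternative fit. The falls of C1S and MASP1 were each lost without combination replicate 2 or vehicle replicate 1, among other settings. C3, the component at which its pathways meet, fell from 565 ± 70 (SD, n = 3) to 179 ± 38.1 normalized counts (log2 fold change -1.67, SE 0.173, adjusted p = 4.14e-06). SERPING1, the inhibitor of the first component, fell from 1727 ± 173 (SD, n = 3) to 968 ± 128 normalized counts (log2 fold change -0.84, SE 0.122, adjusted p = 1.63e-04). CLU, clusterin, was not called (log2 fold change -0.27, adjusted p = 0.147). Among 21 chemokines and inflammatory stromal genes 3 rose and 5 fell (median -0.03), and the falls were 3 without combination replicate 3. CXCL12, a stromal chemokine (ENSSSCG00000034973, chromosome 14, 91516431 to 91552752, plus strand), fell from 742 ± 113 (SD, n = 3) to 295 ± 56.7 normalized counts (log2 fold change -1.33, SE 0.153, adjusted p = 1.29e-05). CCL11, eotaxin, fell from 129 ± 15.3 (SD, n = 3) to 54.8 ± 14.8 normalized counts (log2 fold change -1.25, SE 0.198, adjusted p = 3.81e-04). IL33, an alarmin of stromal cells, fell from 1619 ± 214 (SD, n = 3) to 687 ± 59.1 normalized counts (log2 fold change -1.23, SE 0.125, adjusted p = 3.09e-06). TNFAIP6, a hyaluronan-binding inflammatory protein, had a log2 fold change of 0.69 (SE 0.0996). Of 36 interferon-stimulated genes none rose and 2 fell, with a median of -0.22, and 1 fall was called in every alternative fit. This share is near the 4.06% of all tested genes that fell. The larger fall was that of IFI6, which fell from 1884 ± 396 (SD, n = 3) to 1076 ± 231 normalized counts (log2 fold change -0.81, SE 0.176, adjusted p = 0.00599).

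**Figure D3:**
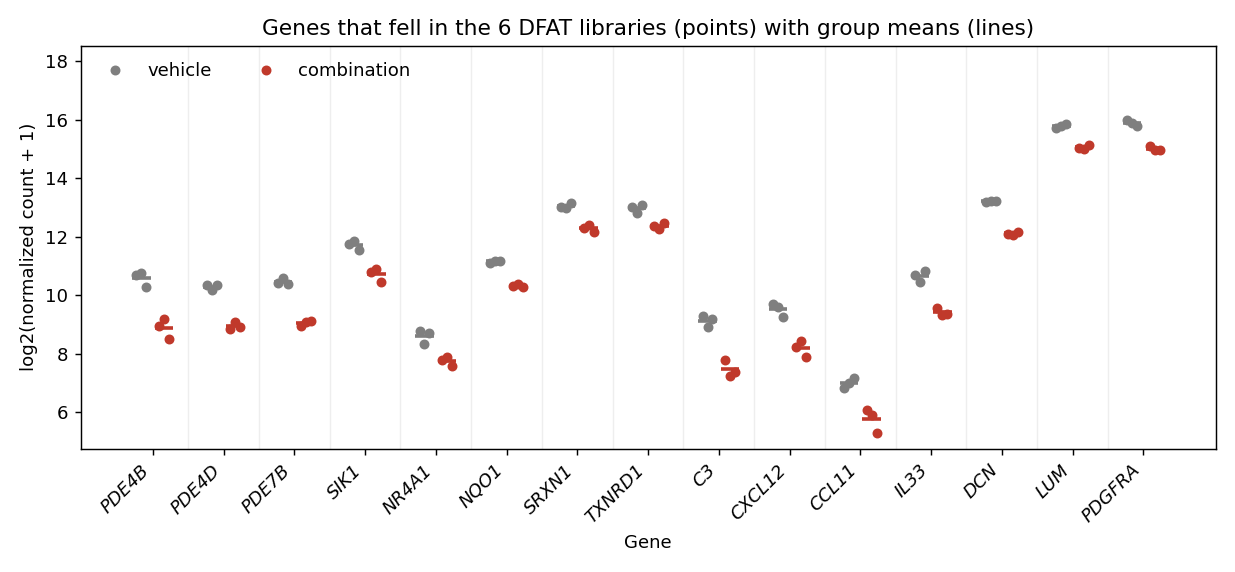
Each point is 1 DFAT library and each line a group mean, on the log2(normalized count + 1) axis, for 15 genes that fell under the combination (red) against vehicle (grey). In every gene drawn the combination points lie below all vehicle points, with the largest differences of group means in PDE4B and C3 and a small one in TXNRD1.

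Outside the lists, the 15 largest rises with a symbol included SGK2, a kinase related to SGK1, which rose from 20.3 ± 1.84 (SD, n = 3) to 498 ± 93.9 normalized counts (log2 fold change 4.54, SE 0.27, adjusted p = 4.21e-09). ADIRF, adipogenesis regulatory factor, and the protein phosphatase inhibitor PPP1R1B had log2 fold changes of 4.46 (SE 0.239) and 3.85 (SE 0.226). CHST13, RBP5, SLC25A34 and SERINC2 had log2 fold changes of 3.74, 3.65, 3.29 and 3.00. The largest fall was PI15, a secreted protein. It had 182, 125 and 147 normalized counts in the 3 vehicle libraries and 44.1, 47.9 and 36.9 in the 3 combination libraries. All 3 combination libraries lay below all vehicle libraries, and PI15 fell by 1.78 on the log2 scale (SE 0.199, adjusted p = 9.57e-06). NPTX1, a neuronal pentraxin, fell from 469 ± 45.3 (SD, n = 3) to 158 ± 32.8 normalized counts (log2 fold change -1.58, SE 0.135, adjusted p = 4.23e-07). ESM1, a secreted proteoglycan, fell from 414 ± 84.1 (SD, n = 3) to 143 ± 8.74 normalized counts (log2 fold change -1.51, SE 0.22, adjusted p = 1.66e-04). BDKRB2, the bradykinin receptor, fell from 461 ± 6.05 (SD, n = 3) to 195 ± 12.6 normalized counts (log2 fold change -1.24, SE 0.117, adjusted p = 1.39e-06). CPAMD8, C14orf132, RFX2 and NRCAM had log2 fold changes of -1.56, -1.45, -1.44 and -1.34. SULT1A3 (-1.57) belongs to a family of near-identical sulfotransferase genes, so its value is uncertain.

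The design also allows the combination to be set against each compound alone. These comparisons share the combination libraries with the one above. Against magnolol alone limma called 92 genes (0.621%), 57 higher (0.385%) and 35 lower (0.236%). Deviations of same-numbered libraries from their group means correlated at 0.118 to 0.345 here, though what a number marks is not known. With the replicate as a block the count was 290. Without combination replicate 1 it was 49 (20 lower), without combination replicate 3 54 (21 lower) and without magnolol replicate 1 44 (15 lower), and the lower calls were 18 and 20 without magnolol replicate 2 and 3. Against dicoumarol alone 348 genes were called (2.35%), 297 higher (2.0%) and 51 lower (0.344%). The count was 198 (20 lower) without combination replicate 3, 175 (13 lower) without dicoumarol replicate 1, 214 (31 lower) without dicoumarol replicate 2 and 212 (21 lower) without dicoumarol replicate 3. The lower calls also numbered 30 without combination replicate 1.

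Several fat-storage genes were higher with the combination than with either compound alone. PLIN1 averaged 140.2 ± 13.1 (SD, n = 3) with vehicle, 628 ± 97 with dicoumarol, 2116 ± 232 with magnolol and 3903 ± 70.5 normalized counts with the combination. The combination exceeded magnolol by 0.89 (adjusted p = 3.17e-04) and dicoumarol by 2.65 (adjusted p = 5.4e-11) on the log2 scale. Of the 11 lipid droplet genes 4 were higher than with magnolol (6 with the replicate block) and 7 higher than with dicoumarol. Of the 13 genes of fatty acid uptake and binding these counts were 6 (6 with the block) and 7, and of the 9 lipolysis genes 3 (4) and 4. FABP4 exceeded magnolol by 1.12 (adjusted p = 7.59e-05) and dicoumarol by 1.82 (adjusted p = 2.14e-08). ADIPOQ exceeded dicoumarol by 2.90 (adjusted p = 3.19e-07) but its difference from magnolol, 0.54 (95% interval 0.08 to 1.01), was not called. DGAT2 averaged 405 ± 112 (SD, n = 3) with vehicle, 417 ± 55.3 with dicoumarol, 1866 ± 164 with magnolol and 2774 ± 276 normalized counts with the combination. It exceeded dicoumarol by 2.73 (adjusted p = 2.2e-09), and its difference from magnolol, 0.57, was called only with the replicate block (adjusted p = 0.0074, against 0.104 without it).

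The contractile and matrix genes gave few differences from magnolol alone, but so did all genes tested, of which 0.621% were called against magnolol. The absence of such calls in the 2 lists below is near that share. Over all genes tested 2.0% were higher than with dicoumarol. Of the 26 contractile genes none differed from magnolol (1 higher with the block) and 8 were higher than with dicoumarol. Of the 23 collagen chains none differed from magnolol (1 higher and 1 lower with the block) and 5 were higher than with dicoumarol. SMTN averaged 3108 ± 235 (SD, n = 3) with vehicle, 3549 ± 81.5 with dicoumarol, 6104 ± 348 with magnolol and 6663 ± 228 normalized counts with the combination. Its difference from magnolol was 0.13 (95% interval -0.04 to 0.29, adjusted p = 0.975) and from dicoumarol 0.91 (adjusted p = 1.3e-06). COL1A1 differed from magnolol by -0.02 (95% interval -0.30 to 0.27) and from dicoumarol by 0.26 (95% interval -0.03 to 0.54), and neither was called. COL11A1 and MYH11 were called above magnolol only with the block, by 0.46 (adjusted p = 0.00276) and 0.44 (adjusted p = 0.0286). Without the block their 95% intervals were 0.21 to 0.72 and 0.14 to 0.73. IGFBP5 averaged 39196 ± 1723 (SD, n = 3) with vehicle, 39570 ± 2698 with dicoumarol, 76798 ± 3353 with magnolol and 73116 ± 9027 normalized counts with the combination, with a difference of -0.08 from magnolol (95% interval -0.25 to 0.09).

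The falls lay at different distances from each compound alone. PDE4D averaged 1259 ± 76.6 (SD, n = 3) with vehicle, 521 ± 16.8 with dicoumarol, 649.96 ± 18.4 with magnolol and 497 ± 45.7 normalized counts with the combination. Its difference from dicoumarol was -0.07 (95% interval -0.24 to 0.10, adjusted p = 0.778) and from magnolol -0.39 (adjusted p = 0.0315). PDE7B differed from dicoumarol by -0.06 (95% interval -0.26 to 0.14) and from magnolol by -0.64 (adjusted p = 0.00264). IL33 and CCL11 differed from dicoumarol by -0.15 (95% interval -0.42 to 0.11) and -0.13 (95% interval -0.55 to 0.29), and from magnolol by -0.98 (adjusted p = 6.92e-04) and -1.22 (adjusted p = 0.00498). NQO1 was the reverse case. It averaged 2287 ± 51.5 (SD, n = 3) with vehicle, 1731 ± 52.1 with dicoumarol, 1321 ± 161 with magnolol and 1293 ± 51.5 normalized counts with the combination. Its difference from magnolol was -0.02 (95% interval -0.19 to 0.14) and from dicoumarol -0.42 (adjusted p = 0.00618). Of the 21 NRF2 targets none differed from magnolol, with or without the block, and 4 were lower and 1 higher than with dicoumarol. Over all genes tested 0.621% were called against magnolol, so no call among 21 is near that share. Against dicoumarol 0.344% of all genes tested were called lower and 2.0% higher. DCN and C3 lay below both compounds. DCN was lower than with magnolol by 0.58 (adjusted p = 1.85e-04) and than with dicoumarol by 0.55 (adjusted p = 4.6e-05). For C3 these differences were -1.07 (adjusted p = 0.00498) and -0.77 (adjusted p = 0.0234).

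**Figure D4:**
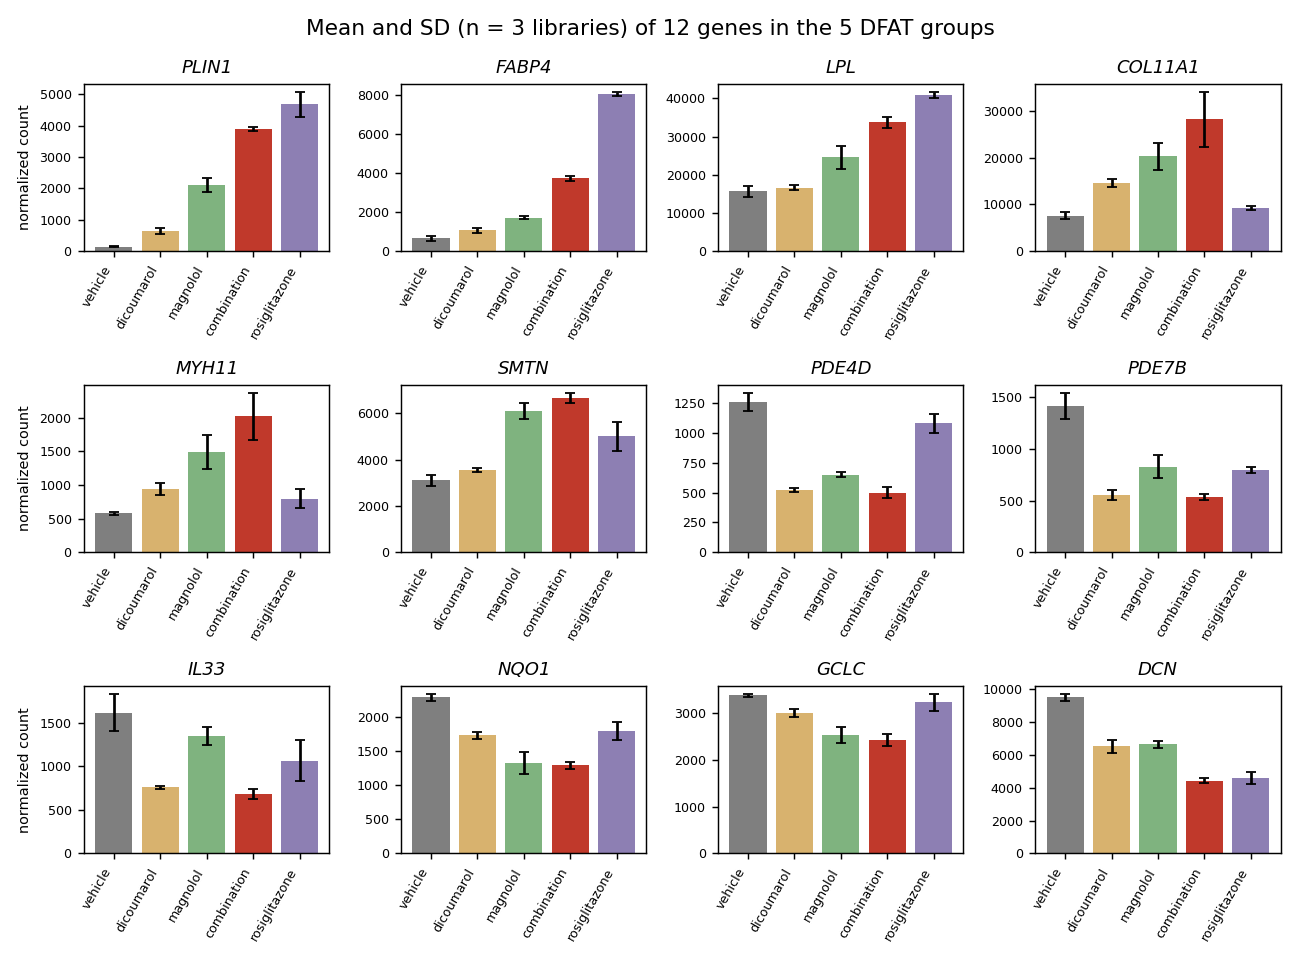
Bars are mean normalized counts and error bars SDs (n = 3 libraries) of 12 genes in the 5 DFAT groups, each panel on its own axis from 0. The PLIN1, FABP4 and LPL bars grow taller from dicoumarol through magnolol to the combination, the combination bars of PDE4D, PDE7B and IL33 lie closest to those of dicoumarol, and those of NQO1 and GCLC closest to those of magnolol.

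The same treatment was given to mouse 3T3-L1 cells, in a table normalized separately and on another induction medium, with insulin at 0.75 µg/mL and 10% serum. That medium had dexamethasone at 75 nM and IBMX at 37.5 µM, and biotin and pantothenate are not among its listed additives. Values of the systems are set side by side by gene symbol, and no difference between them was tested. In 3T3-L1 limma called 821 genes (5.22%), 607 higher (3.86%) and 214 lower (1.36%), and 2124 with the replicate block. Deviations of same-numbered libraries correlated there at 0.188 to 0.306, again without a known meaning of the number. The 821 became 286 (59 lower) without combination replicate 1, 490 (128 lower) without combination replicate 3, 525 (130 lower) without vehicle replicate 2 and 495 (138 lower) without vehicle replicate 3, and the lower calls were 104 without vehicle replicate 1. Of 9370 genes tested under 1 symbol in both, 616 rose in DFAT and 434 in 3T3-L1. The 63 that rose in both were 10.2% of the DFAT rises and 14.5% of the 3T3-L1 rises. Falls in both numbered 21, which were 4.74% of 443 DFAT falls and 13.7% of 153 3T3-L1 falls. A further 28 rose in DFAT and fell in 3T3-L1, and 29 did the opposite. Among all genes tested, shared or not, 6.11% rose and 4.06% fell in DFAT, and 3.86% and 1.36% in 3T3-L1. Without regard to the test, 443 of the 9370 (4.73%) had groups that did not overlap in either system and lay in opposite directions.

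The droplet genes had higher levels in both systems, and the mitochondrial and matrix lists did not match. Of 9 lipid droplet genes tested in 3T3-L1 6 rose (median 0.61). In the citric acid cycle 13 of 19 rose in 3T3-L1 (median 0.41; 18 with the replicate block), against 2 of 20 in DFAT. In branched-chain amino acid breakdown 13 of 25 rose (0.38; 17 with the block), in fatty acid oxidation 11 of 19 (0.39; 15 with the block) and among respiratory chain subunits 10 of 35 (0.32; 18 with the block). None of the 20 collagen chains tested in 3T3-L1 was called (median -0.22; 2 higher and 3 lower with the block). Of 24 contractile genes none rose and 4 fell there (median -0.34; 1 and 11 with the block). The NRF2 list had 4 rises and no fall among 18 in 3T3-L1 (6 and 1 with the block).

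**Figure D5:**
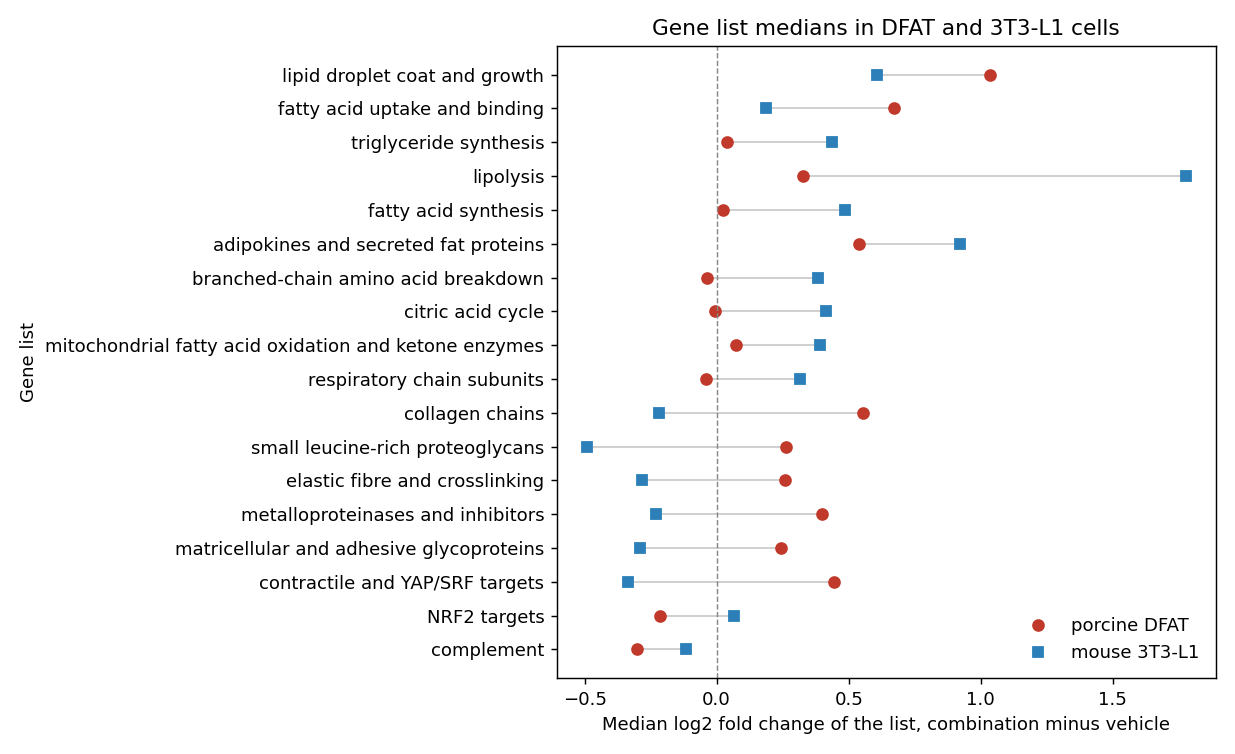
Circles are the median log2 fold change of the combination against vehicle over the tested members of 18 gene lists in porcine DFAT cells, and squares the same in mouse 3T3-L1 cells over the members tested there. The collagen, proteoglycan, elastic fibre, metalloproteinase, matricellular and contractile medians lie above 0 in DFAT and below 0 in 3T3-L1.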

How the data were processed

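Poly(A) RNA of 15 DFAT and 15 3T3-L1 libraries was sequenced from kits that keep the strand, per the labels' protocols. The authors deposited 1 table per species of signal values, which the labels' file descriptions call DESeq2-normalized counts (a gene's count over its library's size factor). The submitters' processing notes name bcl2fastq 2.19.1.403, STAR, DESeq2 and the mouse build GRCm38, without roles. The pig build, the annotation and the counter could not be taken from the sources used here. Coordinates are as deposited, with the end taken as the listed stop less 1.

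Within a tolerance of 0.02, 90.4% to 91.3% of low values of the 6 libraries (up to 20 reads) were whole multiples of 1 read, so reads were not recovered for nearly all genes and no count test was run. The steps gave the estimated depths. The DFAT table lists 34307 genes, of which 9113 are at 0 in every library and 16875 have no symbol of their own.

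limma 3.58.1 in R 4.3.3 was run on log2(value + 1) for genes averaging 10 or more across the 15 libraries of a table. Genes under 10 with vehicle, such as PLIN5, SLC2A4 and PPARGC1A, passed this minimum through groups where they were high. All 5 groups shared 1 model with trended, moderated variances, tests were two-sided, and Benjamini-Hochberg adjusted p-values were read at 0.05. Intervals are limma's 95% intervals. The fit was tested on simulated data, where it recovered 62.7% of 1.5-fold, 83.1% of 2-fold and 93.8% of 4-fold changes. Of 166 calls there 10 were false. The simulation drew each library independently and held no change under 1.5-fold, so smaller changes were not covered. The design took each library as the unit. Tables and plots used Python 3.11.15, numpy 2.4.6, pandas 2.3.3 and matplotlib 3.10.9.

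Alternatives were a pseudocount of 0.5 or 10, no filter, only the compared groups, a replicate block, quantile normalization, no variance trend, and leaving out each library in turn, 13 in all for the DFAT comparison with vehicle. Replicate numbers come from the labels, which do not say what they mark. Deviations from the group means of same-numbered libraries correlated at 0.118 to 0.345 between the combination and magnolol groups and at 0.188 to 0.306 between the 3T3-L1 groups, all above 0.1, so the block is given there.

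Named genes were the 15 largest rises and falls among called genes that have a symbol, average 50 or more over the 6 libraries and separate the groups fully. To these were added up to 6 called members per direction and the uncalled member of highest mean from each of 48 gene lists, and a panel of 13 genes. The members and the lists were chosen with earlier results of these data known, so no list is independent evidence. Sequences of pig genes were not used here. A few genes that the rule names are not reported here.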

Additional observations from a re-analysis of the deposited data

Results flagged for a closer look

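In 33 of the named genes the 3 combination libraries lay entirely on one side of the 3 vehicle libraries in DFAT and entirely on the other side in 3T3-L1. These are 33 of 221 named genes tested in both systems, most of them named because they were called in DFAT, and over all 9370 genes tested under 1 symbol in both such opposite separation was found in 443 (4.73%). The difference between the systems was not tested, and the genes below were picked for their opposite signs. Values below are log2 fold changes of the combination against vehicle, first in DFAT and then in 3T3-L1.

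Of the 21 genes that were higher with the combination in DFAT, 14 did not pass the test in 3T3-L1 (5 with the replicate block, WNT10B, COL12A1, IGFBP5, ITGB1 and TNC). PRELP, ACTA2, TPM1, SFRP2, SPARC and LAMB2 were called in both systems. In DFAT, COL1A1, SPARC and FSTL1 lost the call under quantile normalization, and FSTL1 under several other alternatives as well. Among matrix genes and receptors the values were 1.26 and -0.44 for LOXL4, 1.13 and -0.58 for PRELP, 0.90 and -0.52 for COL12A1 and 0.85 and -0.35 for COL1A1. Further pairs were 0.67 and -0.29 for ITGB1, 0.61 and -0.29 for TNC, 0.57 and -0.35 for SPARC and 0.47 and -0.36 for LAMB2. For FN1 the values were 0.29 and -0.50. Contractile genes and the receptor of mural cells had 1.10 and -0.42 for SMTN, 0.86 and -1.07 for ACTA2, 0.70 and -0.77 for TPM1 and 0.24 and -0.55 for PDGFRB. For secreted ligands, growth factor partners and cell surface or cell cycle genes the values were 1.64 and -0.75 for WNT10B, 1.01 and -0.66 for INHBA, 0.89 and -0.73 for IGFBP5 and 0.69 and -0.84 for SFRP2. Further pairs were 0.56 and -0.38 for CCND1, 0.41 and -0.64 for CSF1, 0.39 and -0.41 for FSTL1 and 0.24 and -0.42 for VCAM1.

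Of the 12 genes that were lower with the combination in DFAT, 8 were called in both systems and the other 4 were called in 3T3-L1 only with the replicate block. In DFAT, ATP5PB, IDH3A, CPT2, PRDX1, EBF2, DNAJB9, PFKFB3, KLF15 and HSD11B1 each lost the call under at least 1 of the 13 alternatives. Enzymes and subunits of mitochondria had -0.21 and 0.34 for ATP5PB, -0.23 and 1.24 for IDH3A, -0.32 and 0.74 for CPT2 and -0.33 and 0.75 for ALDH6A1. For genes of redox balance the values were -0.28 and 0.37 for PRDX1, -0.29 and 0.35 for PGD and -0.50 and 0.40 for SOD2. The remaining genes of this direction had -0.26 and 0.71 for EBF2, -0.28 and 0.50 for DNAJB9, -0.37 and 1.23 for PFKFB3 and -0.56 and 1.95 for KLF15. For HSD11B1 they were -0.85 and 1.04. The DFAT change did not pass the test for FN1, PDGFRB and VCAM1.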

How the results depend on the processing

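The DFAT comparison of the combination with vehicle gave 1508 genes, and the total stayed within 1.5 times of that under each alternative except the replicate block. Leaving out 1 library gave 1012 to 1375 genes. The 602 falls moved by more than 1.5 times under 5 of the 13 alternatives: they were 353, 355 and 366 without vehicle replicate 1, vehicle replicate 3 and combination replicate 3, 384 with only the compared groups and 1232 with the replicate block. Quantile normalization gave 1629 genes, 869 higher and 760 lower. The share of calls that were higher was 60.1%, and from 53.3% under quantile normalization to 67.9% without vehicle replicate 3 among the alternatives.

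With the replicate block the count was 2643 (1411 higher), and all 1508 genes were among them. The numbers are not taken to pair these libraries: same-numbered vehicle and combination libraries correlated at 0.033 to 0.167, not all above 0.1, although 5 of 6 libraries correlated best with their own number. The block gave 290 genes against magnolol (92 without it), 893 against dicoumarol (348 without it) and 2124 in 3T3-L1 (821 without it). Against magnolol the count was 44 with only the compared groups, 57 without a variance trend and 44 to 68 with 1 library left out. Leaving out 1 library gave 175 to 270 genes against dicoumarol and 286 to 722 in 3T3-L1. The cause of these shifts was not tested.

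Of 231 named genes that were called, 164 kept the call under all 13 alternatives, 67 lost it under at least 1, and none changed direction. Leaving out combination replicate 3 cost 44 of these calls, more than any other alternative did. The number of libraries per group (3), unknown compound doses and a table without whole counts limit the precision.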

Other observations

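Other gene groups of the DFAT comparison with vehicle moved little or in part. Of 38 tested genes of the cell cycle and DNA replication 1 rose and 1 fell (median 0.12 on the log2 scale). The rise was CCND1, the cyclin of the step out of rest, which rose from 13176 ± 1292 (SD, n = 3) to 19359 ± 1159 normalized counts (log2 fold change 0.56, SE 0.0887, adjusted p = 3.86e-04). CDKN1A, the inhibitor p21, was not called (log2 fold change 0.03, adjusted p = 0.87). Of 11 targets of the sterol receptor LXR 1 rose and 3 fell, with 1 fall without combination replicate 1, 2 or 3 or vehicle replicate 1 or 3. The rise was APOE, the apolipoprotein of cholesterol transport, which rose from 193 ± 57.1 (SD, n = 3) to 574 ± 52.4 normalized counts (log2 fold change 1.60, SE 0.198, adjusted p = 2.94e-05).

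Of 23 genes of glycolysis and the hypoxia response 1 rose and 4 fell (median -0.18), with 1 fall without combination replicate 3 or vehicle replicate 1. The rise was the aldolase ALDOC (0.60, SE 0.0968), and NDRG1, a hypoxia-induced gene, fell under each alternative (-0.55, SE 0.118). PKM, pyruvate kinase, was not called (log2 fold change -0.06, adjusted p = 0.733). Of 10 genes of the aryl hydrocarbon receptor pathway and xenobiotic metabolism 2 rose and 3 fell, all 5 under each alternative. AHRR, the repressor of that receptor, rose from 926 ± 21.8 (SD, n = 3) to 1239 ± 50.4 normalized counts (log2 fold change 0.42, SE 0.071, adjusted p = 7.10e-04). ALDH1A1, a retinaldehyde dehydrogenase, fell from 22090.2 ± 968 (SD, n = 3) to 12142 ± 938 normalized counts (log2 fold change -0.87, SE 0.0797, adjusted p = 1.1e-06), whereas ALDH1A3 of the same family had a log2 fold change of 0.63 (SE 0.134). CYP1B1, a standard target of the receptor, was not called (log2 fold change 0.09, adjusted p = 0.493). Of 17 circadian clock genes DBP (-0.79), BHLHE40 (-0.32) and CRY1 (-0.31) fell under each alternative, and BHLHE41 was called higher (0.37), though not without combination replicate 3.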
